A study of Mus musculus with 12 samples.

Results

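JAK-STAT signalling genes were followed in mouse muscle stem cells (MuSCs) through the 9 genes Il6st, Il6ra, Osmr, Lifr, Stat3, Socs1, Socs2, Socs3 and Cish, which encode cytokine receptors, a transcription factor and feedback inhibitors. They were chosen by name, and each matched 1 of the 55335 genes counted. All 9 were among the 22635 genes tested. The RNA came from ZsGreen+ cells sorted by FACS from hindlimb muscle of Pax7-ZsGreen mice, a transgenic strain in which the Pax7 gene drives a green fluorescent protein. Per the study's methods the mice were 3 to 6 months old. There were 4 groups of 3 libraries. F cells were freshly isolated and went into TRIzol as they were sorted, 2d-U cells were cultured for 2 days without compression, and 5d-U cells for 5 days without compression. 2+3d-C cells had 2 days without compression and then 3 days under a pillar device that leaves a height of about 4 μm. All cultured cells grew on Matrigel and fibronectin in medium with FGF, horse serum, fetal bovine serum and chicken embryo extract. The study's reporting summary says that each sorted batch was divided at random among the conditions. Neither the labels nor the methods say which libraries came from the same mice or the same sort. Any shared batch is thus left out of the fit, and the p-values below measure the spread between libraries.

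Cytokines of the interleukin-6 family bind a receptor of their own together with a shared chain, gp130, which Il6st encodes. The receptors activate JAK kinases at the membrane, which phosphorylate STAT proteins, and STAT dimers enter the nucleus and start transcription. Among the genes switched on are those of the SOCS proteins and CIS, which bind receptors or JAKs and end the signal, so their RNA is widely read as a trace of recent cytokine signalling. In muscle, IL-6 and STAT3 are known for their part in the proliferation and differentiation of MuSCs, and oncostatin M, the ligand of OSMR, for a part in their quiescence.

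Depth ran from 12540745 to 62424851 reads on genes in a library. All 6 MuSC and myoblast markers (Pax7, Myf5, Myod1, Vcam1, Itga7 and Cdh15) had over 3 reads in some library of every group. Their summed level was 6800 to 11500 CPM (counts scaled to library size) in 2+3d-C, above the 1630 to 2970 over the other 9 libraries. Most 2+3d-C reads on these markers were of Myod1 (436425) and Vcam1 (233864), with 6561 of Pax7. All but Itga7 had their highest mean in 2+3d-C. The Itga7 mean was 38.5 there and 53.0 in 2d-U (RPKM, reads per kb of exon scaled to library size). In 4 libraries, genes of families that muscle does not express (sensory receptors of smell and taste, alpha-defensins, hair keratin-associated proteins) carried over 0.5 reads per kb of exon, against at most 0.220 in the other 8. These were 5d-U replicates 1 (3.81 reads per kb) and 6 (0.635), and F replicates 4 (5.03) and 5 (7.13). For Il6ra, Osmr, Lifr, Cish and Socs3, the reads that this density would put on the gene in 5d-U replicate 1, the 5d-U library with the most of them, are given beside the reads counted.

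The comparison of 2+3d-C with 5d-U asks what compression changed in cells cultured for the same time. Of the 9 genes, 7 passed an adjusted p-value of 0.05 with a higher level in 2+3d-C and none with a lower one, while 9.14% of all tested genes were called higher and 13.4% lower (quasi-likelihood test of edgeR, adjusted after Benjamini and Hochberg over all 22635 genes, as for every adjusted p given here). The called genes were the receptors Il6st, Osmr and Lifr, the transcription factor Stat3, and the inhibitors Socs1, Socs3 and Cish. For each of them the lowest 2+3d-C library lay above the highest 5d-U library, which was the case for 12.6% of tested genes. The receptor Il6ra and the inhibitor Socs2 were not called. The median log2 fold change was 4.77 over the 9 genes and -1.05 over all tested genes. Against the earlier culture 2d-U, 7 members were called higher and none lower, beside 16% and 8.63% of tested genes. In neither comparison was a member lower by DESeq2 or at an unadjusted p under 0.05 (0 of 9). The same 7 genes lay apart from every 2d-U library, as 18.1% of tested genes did in that direction.

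**Figure D1:**
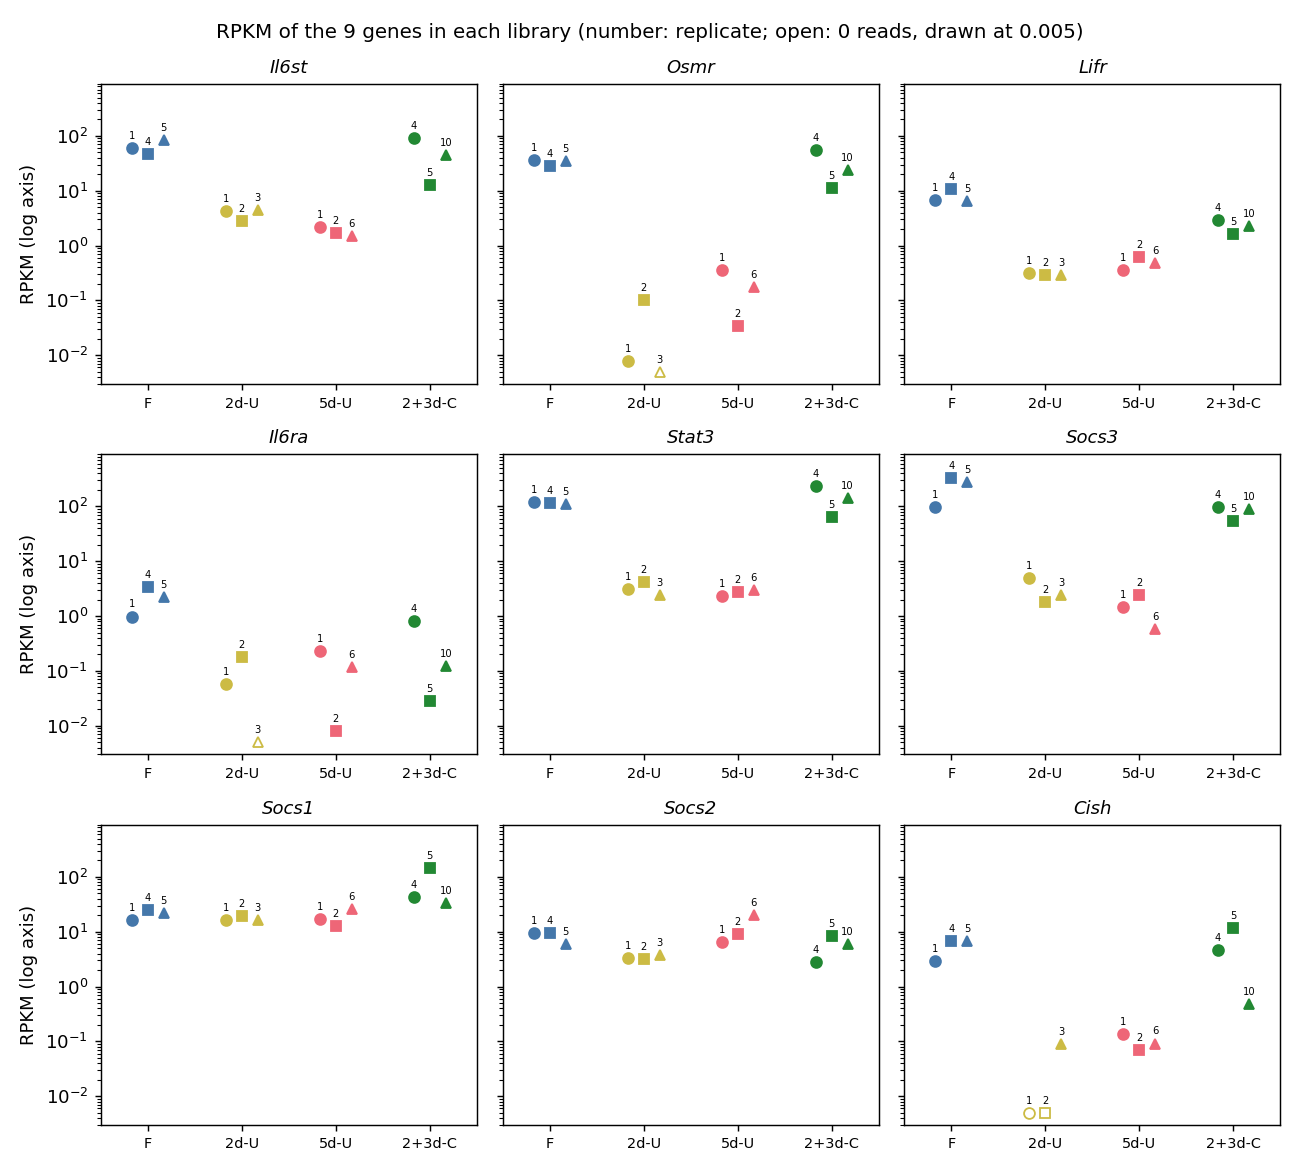
RPKM of each of the 9 genes on a logarithmic axis in 3 libraries a group, with groups in the order F, 2d-U, 5d-U, 2+3d-C. Each point is a library with its replicate number, and open points mark libraries with 0 reads, drawn at 0.005. For Stat3 the 3 F and 3 2+3d-C libraries lie at 64.3 RPKM or above and the 6 uncompressed libraries at 4.21 or below, while for Socs2 the 2+3d-C libraries overlap all other groups.

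**Figure D2:**
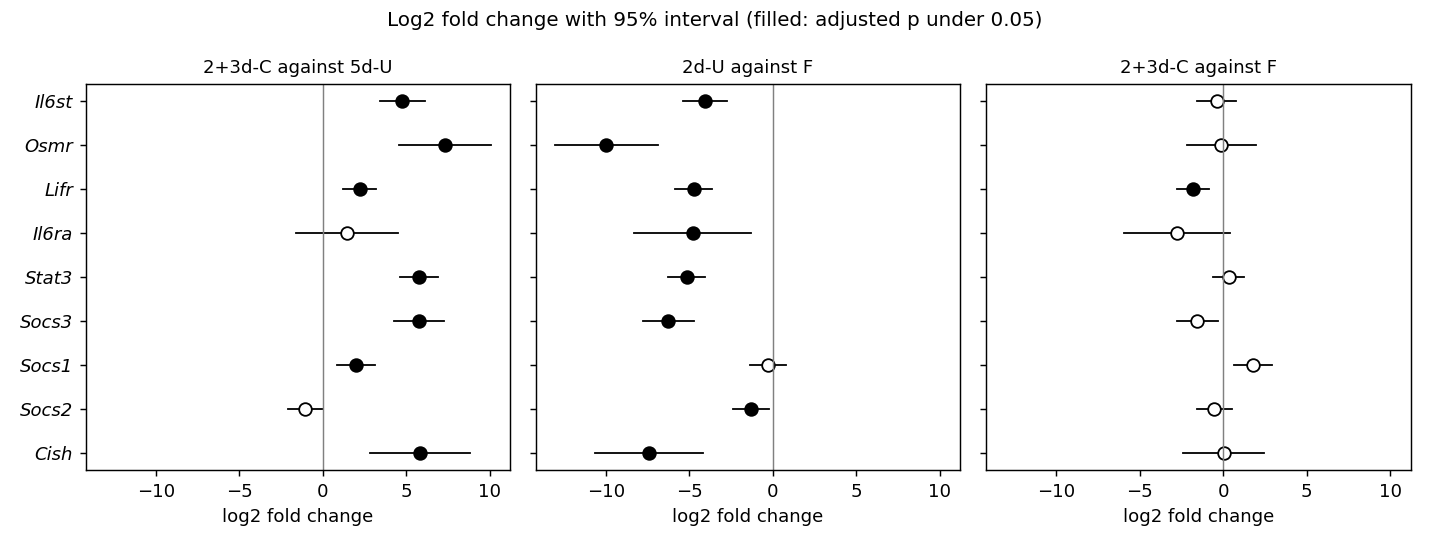
Log2 fold change (x axis) of each gene (y axis) in 2+3d-C against 5d-U, 2d-U against F and 2+3d-C against F, with 95% intervals from the edgeR fit as bars. Filled points passed an adjusted p of 0.05. The intervals of Il6st, Osmr, Lifr, Stat3, Socs3 and Cish exclude 0 in the first 2 panels, and in the third only that of Lifr belongs to a called gene.

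Il6st encodes gp130, the signalling chain that all receptors of the family share (ENSMUSG00000021756.12, mm10 chromosome 13, 112464070 to 112510086). In replicate order its RPKM (reads per kb of exon, scaled to library size) was 59.6, 46.9 and 84.5 in F, 4.31, 2.76 and 4.50 (2d-U), 2.20, 1.73 and 1.47 (5d-U) and 90.4, 12.5 and 44.3 (2+3d-C). The 2+3d-C libraries reached from below to above the F range, and none of them overlapped an uncompressed library. Il6st rose by 4.77 on the log2 scale against 5d-U (SE 0.635, edgeR adjusted p = 0.000164) and by 3.67 against 2d-U (edgeR adjusted p = 0.000618). In the uncompressed cultures it ranked above 71.1% of tested genes at day 2 and 60.1% at day 5, against 97.0% in F.

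Osmr encodes the chain that pairs with gp130 to receive oncostatin M (ENSMUSG00000022146.12, chromosome 15, 6813577 to 6874969). It had the largest fold of the 9 genes in 2+3d-C against 5d-U. Its RPKM was 36.3, 27.8 and 34.9 in F and 56.0, 11.3 and 23.8 in 2+3d-C. Uncompressed libraries held almost none of it, with 0.00780, 0.100 and 0 RPKM in 2d-U (5, 31 and 0 reads) and 0.355, 0.0346 and 0.178 in 5d-U (99, 12 and 44 reads). Of the 99 reads in 5d-U replicate 1, the density on silent families would give 46.2, and of the 44 in replicate 6 it would give 7.69. Osmr was higher in 2+3d-C by 7.33 on the log2 scale against 5d-U (SE 1.28, edgeR adjusted p = 0.00116) and by 9.85 against 2d-U (SE 1.44, edgeR adjusted p = 0.000261), with wide intervals of 4.59 to 10.1 and 6.78 to 12.9.

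Lifr encodes the receptor of leukemia inhibitory factor, which also takes part in the receptors of cardiotrophin and CNTF (ENSMUSG00000054263.12, chromosome 15, 7090614 to 7197489). It was expressed at a lower level than Il6st and Osmr in fresh cells, with 6.86, 10.8 and 6.45 RPKM. The values were 0.316, 0.287 and 0.290 (2d-U), 0.363, 0.615 and 0.477 (5d-U) and 2.94, 1.6 and 2.27 (2+3d-C). As counted, the 4 groups did not overlap for this gene, but 5d-U replicate 1 had 90 reads, of which the density on silent families would give 41.1, so its place above 2d-U is uncertain. Lifr rose by 2.23 on the log2 scale in 2+3d-C against 5d-U (SE 0.459, edgeR adjusted p = 0.00334) and by 2.93 against 2d-U (edgeR adjusted p = 0.000540), a smaller change than those of Il6st and Osmr, though differences between genes were not tested.

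Il6ra, the chain that binds IL-6 itself, had the lowest level of the 9 genes in F (ENSMUSG00000027947.11, chromosome 3, 89864059 to 89913196, with 2.80% of its exon length shared with Gm42809). F libraries held 0.982, 3.44 and 2.21 RPKM. The culture libraries were all lower, with 0.0569, 0.181 and 0 (2d-U), 0.226, 0.00808 and 0.119 (5d-U) and 0.820, 0.0280 and 0.122 (2+3d-C). The 2+3d-C value rested on replicate 4, with 378 reads against 2 and 23 in the others. In 5d-U replicate 1 the gene had 45 reads, of which the silent-family density would give 33.0, and in replicate 6 it had 21, of which it would give 5.49. Against 5d-U the log2 fold change had a value of 1.48 with a 95% interval of -1.58 to 4.54 (edgeR adjusted p = 0.428), and without 2+3d-C replicate 4 it was -0.59, so no direction can be given. Per Il6st RPKM, Il6ra stood at 0.00223 to 0.00907 RPKM in 2+3d-C and at 0.0165 to 0.0733 in F, without overlap, and at 0 to 0.103 in the uncompressed libraries.

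Stat3, the transcription factor that gp130 receptors mainly use, was the member with the smallest p-value (ENSMUSG00000004040.16, chromosome 11, 100885098 to 100939540). F libraries were tight at 121, 116 and 113 RPKM, which put Stat3 above 98.4% of tested genes. It stood at 3.18, 4.21 and 2.46 (2d-U), 2.31, 2.77 and 2.94 (5d-U) and 237, 64.3 and 141 (2+3d-C). The 2+3d-C libraries lay on both sides of F, far above the 6 uncompressed ones. Mean levels were 148 ± 86.6 RPKM in 2+3d-C and 2.67 ± 0.322 RPKM in 5d-U (SD, n = 3 each), a log2 fold change of 5.79 (SE 0.530, edgeR adjusted p = 9.99e-06, the 46th smallest p of all tested genes). Against 2d-U it was 5.49 (edgeR adjusted p = 1.23e-05). Less than 1% of the exon length of Stat3 (0.756%) is shared with its neighbour Stat5a.

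Socs3, the main inhibitor of gp130 receptors and a classic target gene of STAT3, had the highest level of the 9 genes in F (ENSMUSG00000053113.3, chromosome 11, 117966079 to 117970047). It reached 97.3, 336 and 281 RPKM there, above 99.3% of tested genes. In 2d-U it stood at 5.00, 1.83 and 2.45, in 5d-U at 1.44, 2.39 and 0.592, and in 2+3d-C at 97.4, 55.2 and 90.3. The 2+3d-C libraries were all above the uncompressed ones and 2 of 3 below F. Of 96 reads in 5d-U replicate 1, the silent-family density would give 11. Socs3 rose by 5.77 on the log2 scale against 5d-U (SE 0.694, edgeR adjusted p = 7.37e-05) and by 4.71 against 2d-U (edgeR adjusted p = 0.000192).

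Cish encodes CIS, an inhibitor best known downstream of STAT5 (ENSMUSG00000032578.7, chromosome 9, 107296026 to 107302784). Its RPKM was 2.92, 6.70 and 6.81 in F, and in 2+3d-C it was 4.61, 11.7 and 0.477, the widest spread of the 9 genes within that group on a log scale apart from Il6ra. In 2d-U it had 0, 0 and 0.0897 RPKM (0, 0 and 26 reads) and in 5d-U 0.136, 0.0707 and 0.0914 (20, 13 and 12 reads). The lowest 2+3d-C library, replicate 10 with 67 reads, still lay above every uncompressed one. In 5d-U replicate 1, the density on silent families would give 24.5 reads, more than the 20 counted. Cish was higher by 5.81 on the log2 scale than at day 5 without compression (95% interval 2.81 to 8.80, edgeR adjusted p = 0.00877) and by 7.46 than at day 2 (SE 1.52, edgeR adjusted p = 0.00285). The 26 reads of 2d-U replicate 3 were all that group had, and without that library the fitted value is 13.1, which is set by the model's prior and is no estimate of size. Gm17040 and Gm17041 share 11.5% of the exon length of Cish, and reads in that stretch cannot be assigned to one gene without strand.

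STAT proteins bind the palindrome TTCNNNGAA, so the promoter windows of the members were read for it (RefSeq, build GRCm38.p6, 250 bases before to 50 after a transcription start). A window was found for 8 of the 9 genes, all but Socs2. Those of Socs3 and Cish held the pattern, and those of Il6st, Il6ra, Osmr, Lifr, Stat3 and Socs1 did not. The pattern reads the same on both strands, and 9.55% of the 27025 genes with a window hold it in at least 1 (8.30% of all 32851 windows). The 30 bases around each match are printed 5′ to 3′ on the strand of the gene, with the match in capitals, since they hold every match found in the 8 members' windows.
Socs3: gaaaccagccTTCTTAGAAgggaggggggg
Cish: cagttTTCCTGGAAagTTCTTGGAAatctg
The Socs3 stretch lies at chr11:117969501-117969530 on the minus strand, outside the exons of the gene, and its match begins 154 bases before the start. The Cish stretch lies at chr9:107296654-107296683 on the plus strand, overlaps an exon in the files' annotation, and holds 2 matches, which begin at bases 1 and 12 after the RefSeq start. A match is a run of letters, and binding was not measured.

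Socs1, the inhibitor that acts most strongly on JAKs themselves and is best known for restraining interferon signalling, differed from Socs3 in the uncompressed cultures (ENSMUSG00000038037.5, chromosome 16, 10782240 to 10785536). F libraries held 16.5, 25.4 and 21.9 RPKM, 2d-U 16.3, 19.6 and 16.2, and 5d-U 17.0, 12.5 and 25.5, so these 3 groups overlapped. The 2+3d-C libraries stood at 43.8, 146 and 33.0, all above the other 9. Socs1 rose by 2.02 on the log2 scale against 5d-U (SE 0.531, edgeR adjusted p = 0.0142) and by 2.10 against 2d-U (edgeR adjusted p = 0.0110). Replicate 5 carried much of this, and without it the change was 1.06 against 5d-U (edgeR adjusted p = 0.0905) and 1.14 against 2d-U (edgeR adjusted p = 0.0655). Without 5d-U replicate 2 it was 1.79 (edgeR adjusted p = 0.0563).

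Socs2, an inhibitor best known downstream of the growth hormone receptor, was the only member whose mean was highest in 5d-U (ENSMUSG00000020027.18, chromosome 10, 95385362 to 95417180). Its RPKM was 9.62, 9.37 and 6.00 in F, 3.32, 3.16 and 3.74 (2d-U), 6.45, 8.95 and 20.1 (5d-U) and 2.78, 8.49 and 6.06 (2+3d-C). The 2+3d-C libraries overlapped all 3 other groups. The log2 fold change against 5d-U was -1.03, with a 95% interval of -2.10 to 0.03 (edgeR adjusted p = 0.122), and that against 2d-U was 0.76 (edgeR adjusted p = 0.293).

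Calls of the first comparison were lost in part when libraries were left out. Without the 4 libraries with reads on silent families, 2 of the 9 genes were called against 5d-U, Stat3 with a log2 fold change of 5.74 (edgeR adjusted p = 0.0181) and Socs3 with 5.08 (edgeR adjusted p = 0.0195), where 5d-U then had 1 library, assumed to vary like those of the other groups. The fold changes of Il6st (4.83), Osmr (9.77), Lifr (1.89), Socs1 (2.57) and Cish (6.29) kept their direction there, and against 2d-U, where no library was lost, 7 of the 9 genes were again called.

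Markers of other cell types also differed between groups. In every list but that of mature myofibers all 2d-U libraries had lower sums than those of F and of 2+3d-C. The 5d-U sums were likewise lower for the fibroadipogenic, endothelial, glial and erythroid lists. For the immune, smooth muscle and pericyte, and mature myofiber lists the 5d-U sums overlapped those of 2+3d-C. The summed level of 6 fibroadipogenic markers was 2220 to 7730 CPM in F and 512 to 978 in 2+3d-C, but 4.63 to 11.6 at day 2 (2d-U) and 9.07 to 55.9 at day 5 (5d-U) without compression, with Pdgfra, Lum and Dpt at 3 reads or fewer in all 2d-U libraries. That of 6 endothelial markers was 875 to 1360 CPM in F and 102 to 210 in 2+3d-C, but 4.73 to 5.52 at day 2 (2d-U) and 2.55 to 31.4 at day 5 (5d-U) without compression, and all 6 were detected in every group. Both kinds of cell are known to express Il6st and Osmr, and the sort for ZsGreen is meant to leave them out. Within the fibroadipogenic list the markers disagreed, and Dpt was higher in 2+3d-C (120 to 218 RPKM) than in F (58.6 to 88.2). The means of the other markers of that list were lower in 2+3d-C, such as Pdgfra (0.294 against 9.20) and Col1a1 (7.17 against 211). The sum of 9 immune markers was 502 to 1900 CPM in F and 5.48 to 114 in 2+3d-C, but 0.709 to 2.44 at day 2 (2d-U) and 1.47 to 141 at day 5 (5d-U) without compression. In 2+3d-C, 5 of the 9 were detected, and Ptprc, Adgre1 and Cd3e were among those at 3 reads or fewer in every library. In 2d-U, 4 of the 9 were detected, and Ptprc, Adgre1, Lyz2 and Itgam were among those that were not.
Glial markers summed to 427 to 731 CPM in F, 2.17 to 2.62 in 2d-U (Sox10 not detected), 5.76 to 10.4 in 5d-U and 183 to 610 in 2+3d-C, all 4 of them detected in the other groups. Smooth muscle and pericyte markers summed to 647 to 868 in F, 62.7 to 87.8 in 2d-U (Myh11 and Rgs5 not detected), 57.7 to 730 in 5d-U and 249 to 390 in 2+3d-C. Erythroid markers summed to 119 to 504 in F, 0 to 0.133 in 2d-U (Alas2 not detected), 0.105 to 0.245 in 5d-U (Hbb-bs not detected) and 19.7 to 226 in 2+3d-C, and mature myofiber markers to 27.6 to 2450, 49.2 to 87.2 (Myh4 not detected), 159 to 2440 and 59.9 to 176. The part of such cells in the levels of the 9 genes was not tested. In bulk libraries a change in the share of a cell type and a change in the RNA per cell cannot be told apart.

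Fresh cells were compared with the day-2 culture to see how it differed from freshly sorted cells. The paper cites substantial differences between freshly isolated MuSCs and MuSCs fixed in place. F levels therefore need not be those of intact muscle, and the part of isolation in them was not tested. All members but Socs1 fell, 8 of 9, and none rose (0 also by DESeq2 and at an unadjusted p under 0.05), while 33.3% of tested genes were called lower and 10.6% higher. Among the receptors, Osmr fell by 9.97 on the log2 scale (SE 1.44, edgeR adjusted p = 0.000271), and the changes were -4.05 for Il6st (edgeR adjusted p = 0.000393), -4.75 for Lifr (edgeR adjusted p = 4.33e-05) and -4.81 for Il6ra (edgeR adjusted p = 0.0326). Stat3 fell by 5.15 (edgeR adjusted p = 2.73e-05). Among the inhibitors, Socs3 fell by 6.26 (edgeR adjusted p = 5.51e-05), Cish had a change of -7.43 (edgeR adjusted p = 0.00260, and -13.0 without 2d-U replicate 3, the only 2d-U library with reads of it), and Socs2 fell by 1.29 (edgeR adjusted p = 0.0497), near the threshold. For these 8 genes every 2d-U library lay below every F library, which held for 32.1% of tested genes. Socs1 differed by -0.29 with a 95% interval of -1.38 to 0.80. The call of Socs2 was lost without any 1 of 6 libraries (5d-U replicate 2, each of the 2d-U replicates, and F replicates 4 and 5, highest edgeR adjusted p = 0.118), and that of Il6ra without 2d-U replicate 1 or 3 or F replicate 4 or 5. Without the 4 libraries with silent-family reads 5 of the 9 genes were called, and Cish (edgeR adjusted p = 0.0956), Il6ra and Socs2 were not. Socs2 was also not called with no low-count filter (edgeR adjusted p = 0.0803).

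By day 5 without compression 6 members were below F and none above, while 8.9% of tested genes were called lower and 11.6% higher. These were Socs3 (log2 fold change -7.33, edgeR adjusted p = 5.41e-05), Osmr (-7.45, edgeR adjusted p = 0.00106), Cish (-5.78, edgeR adjusted p = 0.00843), Stat3 (-5.45, edgeR adjusted p = 4.02e-05), Il6st (-5.15, edgeR adjusted p = 0.000156) and Lifr (-4.05, edgeR adjusted p = 0.000136). Stat3 and Socs3 held the 20th and 32nd smallest p of all tested genes. Il6ra was not called (-4.23, edgeR adjusted p = 0.0764), though it was under 4 of 7 alternatives, namely DESeq2 (adjusted p = 0.00379), no low-count filter, the 2 groups alone and subtraction of silent-family reads (edgeR adjusted p = 0.00139, 0.0119 and 0.0276), and without 2d-U replicate 3 or 2+3d-C replicate 4 or 10. It and the 6 others had all 5d-U libraries below F, as 22.8% of tested genes did. Socs1 (-0.21) and Socs2 (0.51) overlapped F. The call of Cish was lost with the replicate number as a block (edgeR adjusted p = 0.0558). Without the 4 libraries with silent-family reads, which leaves 1 in each group, 0 of the 9 genes were called.

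Between day 2 and day 5 without compression none of the 9 genes was called by edgeR, while 2.12% of tested genes were called in either direction. At an unadjusted p under 0.05 there were 2, both higher at day 5, Socs2 (log2 fold change 1.79, edgeR adjusted p = 0.0725, libraries apart, as for 31.7% of tested genes in that direction, and called without 5d-U replicate 1 with edgeR adjusted p = 0.0447) and Osmr (2.51, edgeR adjusted p = 0.128, libraries overlapping, and 5.42 with edgeR adjusted p = 0.0309 without 2d-U replicate 2), and DESeq2 called 1, Socs2. The receptor chain Il6st lay lower at day 5 in all libraries (5.4% of tested genes did), with a difference of -1.10 and an interval of -2.27 to 0.08. For Stat3 the difference was -0.29, with an interval of -1.22 to 0.63. These comparisons share libraries with those above.

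The comparison of 2+3d-C with F asks how far compressed cells resembled fresh ones. Lifr was the only member called, lower in 2+3d-C by a log2 fold change of -1.82 (SE 0.451, edgeR adjusted p = 0.0326), where 4.47% of tested genes were called lower and 1.94% higher. No member was called higher in this fit, and at an unadjusted p under 0.05 there were 1 higher (Socs1) and 2 lower (Lifr and Socs3), while DESeq2 called these 3. Socs1 lay above F in every library (8.79% of tested genes did), with a log2 fold change of 1.81 (edgeR adjusted p = 0.0538). It was called by edgeR with no low-count filter (1.84, adjusted p = 0.0237), without 2+3d-C replicate 4 (adjusted p = 0.0359) and without replicate 10 (adjusted p = 0.0328). Socs3 had -1.56 (edgeR adjusted p = 0.0972), and was called without F replicate 1 (edgeR adjusted p = 0.0408). Il6ra, like Lifr, lay below F in every library (18.3% of tested genes did), at -2.75 (edgeR adjusted p = 0.188). For the other 5 the difference was smaller than the spread allowed to resolve. Stat3 differed by 0.34 with an interval of -0.58 to 1.26, Il6st by -0.38 (-1.53 to 0.78), Osmr by -0.12 (-2.18 to 1.94), Socs2 by -0.53 (-1.59 to 0.53) and Cish by 0.03 (-2.38 to 2.43). The call of Lifr was kept in 2 of the 6 fits that left out a library of these groups and lost without 2+3d-C replicates 5 or 10 or F replicates 4 or 5 (edgeR adjusted p up to 0.165). It was also lost without any single 2d-U library (edgeR adjusted p up to 0.0541), without the 4 libraries with silent-family reads (-1.58, edgeR adjusted p = 0.480) and with no low-count filter (-1.74, edgeR adjusted p = 0.0801).

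Levels of different members can be compared per length within a library. Stat3 RNA exceeded Socs1 RNA in all F libraries, with 0.136, 0.219 and 0.194 Socs1 RPKM per Stat3 RPKM. The order was turned in every uncompressed library, where the ratio was 5.15, 4.65 and 6.59 (2d-U) and 7.33, 4.52 and 8.70 (5d-U). In 2+3d-C it was 0.185, 2.28 and 0.234, so replicate 4 lay within the F range, replicate 10 just above it and replicate 5 between F and the uncompressed libraries. Socs3 per Stat3 moved much less, with 0.804, 2.91 and 2.48 in F, 1.57, 0.435 and 0.997 (2d-U), 0.624, 0.862 and 0.202 (5d-U) and 0.411, 0.858 and 0.639 (2+3d-C), and the 2+3d-C values overlapped those of both uncompressed groups. Osmr per Lifr was 5.30, 2.59 and 5.41 in F and 19.0, 7.07 and 10.5 in 2+3d-C, against 0.979, 0.0562 and 0.373 (5d-U) and 0.0247, 0.349 and 0 (2d-U). All 3 compressed libraries were above all F libraries in this ratio. The ratios were chosen after the values were seen, and they were not tested.

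**Figure D3:**
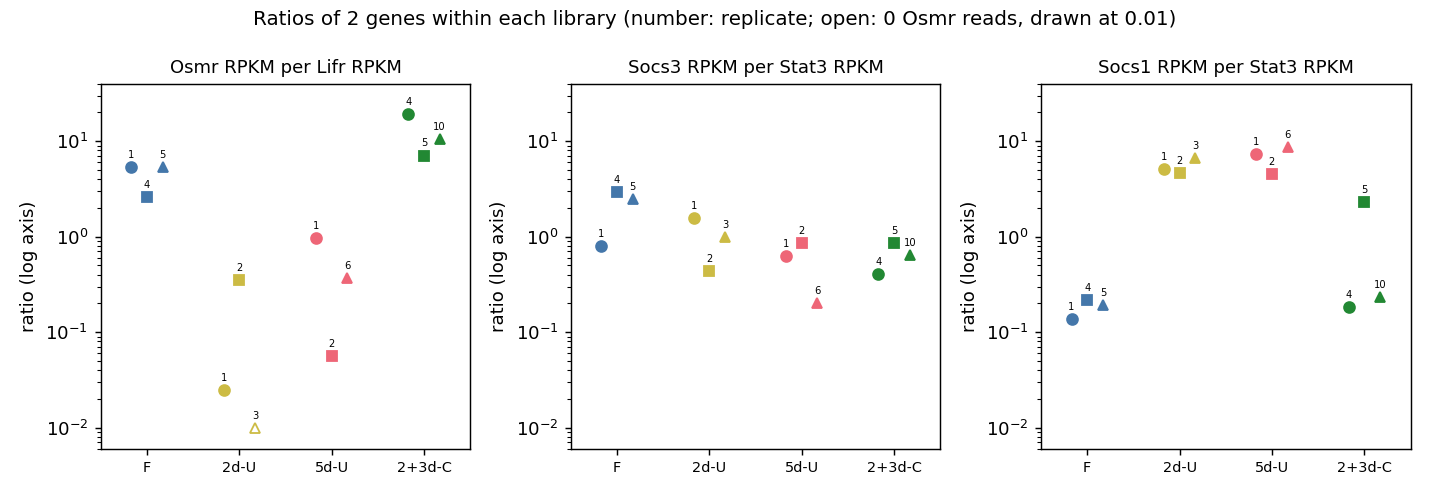
Ratios of RPKM of 2 genes within a library, on a logarithmic axis, for Osmr per Lifr, Socs3 per Stat3 and Socs1 per Stat3, by group (x axis). Each point is a library with its replicate number, and the open point is 2d-U replicate 3, with 0 Osmr reads, drawn at 0.01. Socs1 per Stat3 lies at 4.52 or above in the uncompressed libraries and at 0.219 or below in F.

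The 3 compressed libraries did not vary in the same way for all members. Replicate 5, with the fewest reads (12540745), had the lowest RPKM of the 3 in Il6st, Il6ra, Osmr, Lifr, Stat3 and Socs3, and the highest in Socs1, Socs2 and Cish. Replicate 4, with the most reads (62424851), was highest in the former 6 genes and lowest in Socs2. Replicate 5 also had the highest immune marker sum (114 CPM, against 54.2 in replicate 4 and 5.48 in replicate 10) and, against replicates 4 and 10, the highest fibroadipogenic (978 against 536 and 512), glial (610 against 305 and 183), erythroid (226 against 77.2 and 19.7) and mature myofiber sums (176 against 59.9 and 61.0). Its MuSC and myoblast sum was also the highest (11500 against 9410 and 6800), its endothelial sum the lowest (102 against 209 and 210) and its smooth muscle and pericyte sum between the others (331 against 249 and 390). Whether depth or these cells bear on the difference was not tested.

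Across the 12 libraries the members fell into a tight set and a few apart. As a description over libraries of 4 groups, Pearson's r of log2 CPM was 0.958 between Il6st and Stat3, 0.957 between Il6st and Socs3, 0.949 between Stat3 and Socs3, and 0.947 between Osmr and Stat3. Socs2 had -0.149 to 0.261 with the other 8, and Socs1 0.0198 to 0.582. The 12 points share 4 groups and so are not independent. Among the 8845 tested genes that averaged 10 CPM or more, the pattern of Stat3 was most like those of Csrnp1 (r = 0.994), Tgoln1 (0.992) and Inpp5a (0.989), and that of Socs3 most like those of Adamts1 (0.985), Il4ra (0.983) and Nr4a1 (0.979). Il6st was closest to Tnfaip3 (0.990), Boc (0.989) and Adamts1 (0.986), and Osmr to Synpo (0.990), Plxdc2 (0.984) and Plat (0.980). Lifr was closest to Htra1 (0.981), Ccdc3 (0.981) and the kinase gene Jak2 (0.976), and Cish to Pou3f1 (0.974), Ier3 (0.973) and Ccl7 (0.970). The closest genes were less near for Socs1 (Ubald1, 0.957, Ciart, 0.934, and Sirt2, 0.933), for Il6ra (Cpm, 0.944, Papss2, 0.934, and Fchsd2, 0.922) and for Socs2 (Tmem159, 0.934, S100a1, 0.930, and Gadd45g, 0.907).

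The other genes of the pathway were read from lists of ligands, receptors, kinases, inhibitors and targets. All list counts against 5d-U stand beside 9.14% of tested genes called higher and 13.4% lower. Of the 9 ligands of gp130 receptors 7 were tested, and compressed cells had 4 above 5d-U and none below (1 lower at an unadjusted p under 0.05). Their median log2 fold change was 5.19 over the 5 with a fold, beside -1.05 over all tested genes. Il6 was at 52.2 to 296 RPKM in 2+3d-C and 0.0719 to 0.931 in 5d-U, a log2 fold change of 8.77 (SE 1.36, edgeR adjusted p = 0.000504), and at 341 to 562 in F. Clcf1, a ligand of the CNTF receptor, was at 148 to 260 RPKM against 3.02 to 10.3 (5.19, edgeR adjusted p = 3.01e-05), and it also exceeded F (15.1 to 28.8 RPKM) by 3.21 (edgeR adjusted p = 0.00376). Lif rose by 6.13 (edgeR adjusted p = 0.0236). The fourth was Il11, named after its values were seen. Osm, the ligand of OSMR, was also named after its values were seen, and had 0 reads in the 2d-U and 2+3d-C libraries, 11 in 5d-U and 661 in F, so the compressed libraries held the receptor RNA but no detected Osm RNA. It was at least 37.0-fold lower in 2+3d-C than in F, with a floor of 3 reads per library.

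Of 5 further receptor genes of the family, compressed cells had 2 above 5d-U and 1 below, with a median log2 fold change of -3.47 as fitted and -0.36 with the 3 genes at the floor set to their limit. Il11ra1, the receptor of IL-11, rose by 4.48 against 5d-U (edgeR adjusted p = 0.000114). Il27ra had 0 reads in 2+3d-C and 43 in 5d-U, and was at least 3.26-fold lower, though the share of the 43 reads that the silent-family density would give was not computed. Of 17 other receptors that signal through JAKs 6 were higher and 1 lower (Epor, named after its values were seen, with 0 reads in 2+3d-C and 728 in 5d-U), with a median of 1.70. Il15ra rose by 4.16 (edgeR adjusted p = 0.00136), Il4ra by 3.91 (edgeR adjusted p = 0.000941), Ifnar2 by 2.27 (edgeR adjusted p = 0.00286) and Ifngr1 by 1.89 (edgeR adjusted p = 0.00208), and none of these 4 was called against F.

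Among 10 JAK kinases and other STATs, 6 lay above 5d-U in compressed cells and none below. Stat5a had the largest change of those named, at 9.01 to 40.5 RPKM against 0.457 to 0.501 (5.53, edgeR adjusted p = 0.000178). Jak1 rose by 3.07 (edgeR adjusted p = 0.000582) and Jak2 by 2.93 (edgeR adjusted p = 0.00254). Stat6, which serves the IL-4 receptor, had a log2 fold change of 0.25 (edgeR adjusted p = 0.759). Of 12 other inhibitors 3 were higher and none lower, beside 9.14% and 13.4% of tested genes. Ptpn1, a phosphatase that acts on JAKs, rose by 2.15 (edgeR adjusted p = 0.00212) and Pias1 by 1.58 (edgeR adjusted p = 0.0108), while Ptpn2 had 1.08 (edgeR adjusted p = 0.138) and Pias2 0.23 (edgeR adjusted p = 0.662). The third was Sh2b3, named after its values were seen. The median log2 fold change was 0.68 over this list, against 2.56 over the kinases and STATs, or 2.79 without Stat4, which was named after its values were seen and gives no fold at the floor. At an unadjusted p under 0.05, 1 kinase or STAT and 0 of the inhibitors were lower.

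The targets of the pathway were read in 2 lists. Of 15 genes known to be driven by STAT3, 10 were called higher under compression against 5d-U and 2 lower, with a median log2 fold change of 3.86. At an unadjusted p under 0.05 (edgeR), 11 were higher and 3 lower. Fos rose by 7.30 (edgeR adjusted p = 9.83e-06), Cebpd by 6.16 (edgeR adjusted p = 4.70e-05), Cebpb by 5.35 (edgeR adjusted p = 5.39e-05), Myc by 4.76 (edgeR adjusted p = 7.74e-05) and Junb by 3.86 (edgeR adjusted p = 0.000174). The 2 called lower, named after their values were seen, were Ccnd1, which encodes a cyclin of the G1 phase, and Timp1, an inhibitor of matrix proteases. Many of the 15 are also driven by other pathways, so the list is no measure of STAT3 activity alone. Of 11 interferon target genes 10 were tested and 8 were higher, with a median of 5.31, among them Gbp2 (9.50, edgeR adjusted p = 4.57e-05), Isg15 (6.28, edgeR adjusted p = 0.000831) and Ifit1 (5.88, edgeR adjusted p = 0.000338), while Bst2 had -0.54 (edgeR adjusted p = 0.486). None of the 10 was called against F in either direction by edgeR, with 3 lower at an unadjusted p under 0.05. Against F, 2 STAT3 targets were called, Cebpb (2.19, edgeR adjusted p = 0.0317) and Myc (2.06, edgeR adjusted p = 0.0328), both higher in 2+3d-C. In that comparison 1.94% of tested genes were called higher and 4.47% lower.

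**Figure D4:**
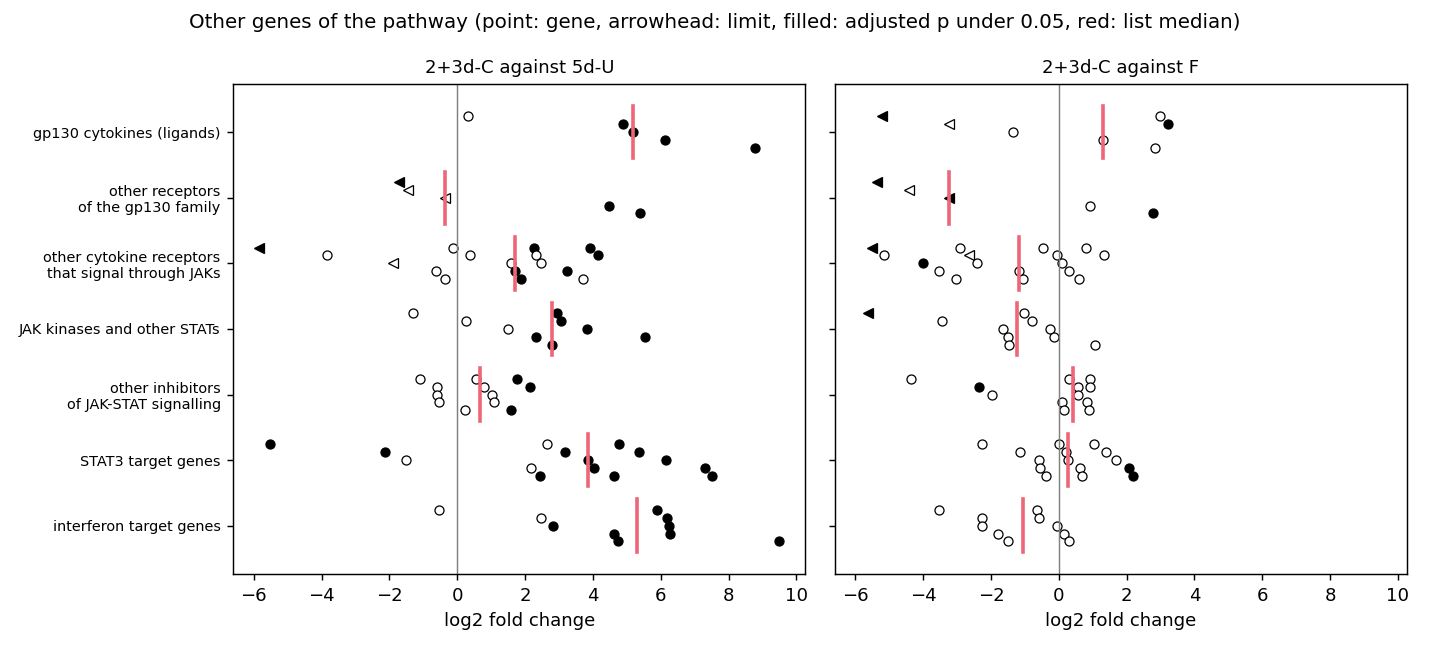
Log2 fold change (x axis) of the tested genes of 7 lists of the pathway (y axis), with 2+3d-C set against 5d-U (left) and F (right). Filled symbols passed an adjusted p of 0.05, arrowheads are limits of genes with 3 or fewer reads in every 2+3d-C library, genes with no fold at the floor are left out, and red bars are list medians. Against 5d-U the medians of 6 lists lie above 0, and against F those of 3 lists do.

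In the day-2 culture the same lists were mostly below F. Lower than F were 6 of 7 ligands, 4 of 5 further receptors of the gp130 family, 14 of 17 other receptors, 7 of 10 kinases and STATs, 3 of 12 inhibitors, 11 of 15 STAT3 targets and 9 of 10 interferon targets, and 1 STAT3 target (Ccnd1) was higher. The inhibitors outside the member list thus had the smallest share of lower genes of the 7 lists, beside a background of 33.3%, and a test between lists was not made.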

How the data were processed

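RNA-seq was read in 12 libraries, 3 a group, with groups taken from the labels. The authors amplified cDNA with the SMART-Seq v4 kit, sequenced 75-base single-end reads, aligned them to mm10 with nf-core/rnaseq 1.4.2 and counted exonic reads per GENCODE vM23 gene with featureCounts 1.6.4. They deposited these as raw counts per gene, without normalization and without regard to strand, and a merged table of the same counts was not used. Library totals were 12540745 to 62424851 reads. PCR duplicates cannot be told from independent molecules. The intervals given come from the edgeR fit and, like its p-values, measure the spread between libraries.

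Counts were fitted in R 4.3.3 with edgeR 4.0.16: filterByExpr, TMM scaling, 1 quasi-likelihood model of all 12 libraries with a coefficient per group, two-sided tests of 6 comparisons, and Benjamini-Hochberg adjustment over 22635 genes with a threshold of 0.05. SE is the log2 fold change divided by the root of its F statistic. RPKM and CPM used TMM-scaled totals, and 2 reads were added as prior for log2 CPM. A library at 3 reads or fewer counts as not detected, and where this holds for a whole group the fold was set against 3 reads per library. Comparisons with 3 against 3 libraries share groups and are not independent. The members and gene lists were chosen with earlier results of these data known. Named outside the members were, per list, the 3 genes of highest mean RPKM and the 2 of smallest p against 5d-U, plus the 3 genes most like each member. Not every gene under this rule is reported here. Any other name carries a remark that it was picked with its values in view. The procedure was also run on simulated counts with far fewer changed genes and the same spread in all groups. It was thus not tested under the conditions of these data. Alternatives were DESeq2 1.42.0, plain library totals in place of TMM, all genes without the low-count filter, the replicate number as a block, the libraries of the 2 groups alone, subtraction of the reads expected from silent families (2089 autosomal genes), each library left out in turn and, chosen after seeing the data, the 4 libraries that exceeded 0.5 such reads per kb left out together.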

Additional observations from a re-analysis of the deposited data

How the results depend on the processing

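Of the 9 genes, 7 were called in 2+3d-C against 5d-U and, separately, 2d-U under DESeq2, plain library totals, no low-count filter, the 2 groups alone and the subtraction of silent-family reads. The median of all tested genes against 5d-U was -1.05, -1.21 with plain totals and -0.90 in DESeq2. Counts of called genes moved by over 1.5 times as follows. DESeq2 called 3 against F and 1 (Socs2) in 5d-U against 2d-U. The fit with no low-count filter called 1 (Osmr) in 5d-U against 2d-U. Without the 4 libraries with silent-family reads, 2 were called against 5d-U, 0 in 2+3d-C against F, 5 in 2d-U against F and 0 in 5d-U against F, with 1 library left in F and in 5d-U. Same-numbered libraries did not deviate together (correlations -0.424 to 0.0322), so the numbers were not taken as pairs. No 2+3d-C replicate number recurs in 5d-U or 2d-U, so a block on it cannot pair these groups. A replicate block called 5 against 5d-U (without Lifr and Socs1), 3 against 2d-U (Osmr, Stat3 and Cish) and 1 (Cish) in 5d-U against 2d-U. The block also ended the calls of Lifr in 2+3d-C against F (edgeR adjusted p = 0.0915) and of Cish in 5d-U against F (0.0558). It ended those of Il6ra and Socs2 in 2d-U against F as well (edgeR adjusted p = 0.679 and 0.256). Under the block Socs3 was called in 2+3d-C against F. For Osmr in 5d-U against 2d-U the 7 alternatives gave 0.095 to 2.23. With each library left out in turn, the counts were 6 to 7 against 5d-U, 6 to 7 against 2d-U, 0 to 2 in 2+3d-C against F, 6 to 8 in 2d-U against F, 6 to 7 in 5d-U against F and 0 to 1 between the uncompressed cultures.

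These log2 fold changes, none called at first, turned in sign. Under DESeq2 they were -0.26 for Cish in 2+3d-C against F and -0.13 for Socs1 in 5d-U against 2d-U. Plain totals gave -0.67 for Cish and -0.072 for Stat3 against F, and -0.41 for Socs1 between the cultures. Socs1 between the cultures was -0.22 with no low-count filter, -0.29 in the 2 groups alone and -0.12 after subtraction. Cish against F was -0.36 in the 2 groups alone and -0.18 after subtraction, which also gave -0.80 for Il6ra between the cultures. The replicate block gave -0.88 and -1.73 for Il6ra in 2+3d-C against 5d-U and 2d-U, 0.18 for Socs1 in 2d-U against F, -0.43 for Socs2 in 5d-U against F, and -0.84 for Il6ra and -0.29 for Socs1 between the cultures. Without the 4 libraries the last 4 were 0.10, -0.10, -3.23 and -0.48. Over single libraries left out, Il6ra ranged from -0.59 to 2.38 against 5d-U, from -0.0059 to 3.5 against 2d-U and from -0.31 to 2.02 between the cultures. In 2+3d-C against F, Il6st ranged from -1.16 to 0.10, Osmr from -0.90 to 0.29, Stat3 from -0.18 to 0.71 and Cish from -1.09 to 0.58. In 5d-U against F, Socs1 ranged from -0.81 to 0.021 and Socs2 from -0.10 to 0.82, and Socs1 ranged from -0.28 to 0.30 between the cultures. The cause of these changes was not tested. Fold changes of Osmr, Cish and Il6ra rest on few reads in the uncompressed libraries, which held 0 to 99 of each.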
